A study of Rattus norvegicus with 15 samples.

Results

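Bone of ovariectomized rats in the YJT group was compared with bone of ovariectomized rats in the Model group. The comparison took the count columns labelled YJT 1 to 3 and Model 1 to 3, so that 6 of the 15 libraries of the study entered it, 3 on each side, and all genes were read. Bulk poly(A) RNA sequencing had been done on bone of female Sprague-Dawley rats in 5 groups of 3 libraries. Blank rats carry the condition Blank and the treatment none. Model rats carry the condition Osteoporosis and the treatment ovariectomized, an operation that takes away the ovaries and with them most oestrogen. The YJT group, like the SYT and YJZYT groups, is also labelled as ovariectomized, and what else it received is known here only by its label. The series is about Zhuanggu Zhitong Capsule, a herbal medicine used in China. Whether YJT is that capsule, a part of it or something else is not said in the labels. No sham-operated group, dose, duration or age is given in the labels. Blank values are set beside the others as a reference. They enter the shared estimate of spread and no contrast.

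Bone is a mixed tissue. Osteoblasts lay down a matrix rich in type I collagen, osteocytes sit within it and release regulators such as sclerostin, and osteoclasts dissolve it with acid and cathepsin K, driven by the cytokine RANKL. Loss of oestrogen is known to speed resorption beyond formation. A piece of long bone also holds marrow with blood-forming cells, fat and vessels, and can carry attached skeletal muscle, whose contractile and energy genes are strongly expressed and nearly absent from bone cells. Osteoblasts and plasma cells secrete large amounts of protein and depend on chaperones of the endoplasmic reticulum, which the unfolded protein response switches on when folding falls behind.

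Library totals ran from 64735848 to 69288302 counts in the 6 libraries. Levels are given as CPM, the field's usual counts per library total on a common scale, after TMM scaling, which applies a factor per library that brings the bulk of genes to the same level. Values of a group are listed in the order of replicates 1, 2 and 3. Pairs of libraries of the same group correlated over all genes with a median of 0.952 on the log2 scale (6 pairs, 0.934 to 0.962), and pairs across the groups with a median of 0.946 (9 pairs, 0.918 to 0.960). All 5 osteoblast, 4 osteocyte and 4 osteoclast markers chosen for bone were present, with none at 0 in any of the 6 libraries. A pair of libraries stood apart in ways that touch the results. Replicate 2 of Model was lowest for muscle genes, with a slow-fibre score of -4.54 against -1.07 and 0.40 in the other Model libraries. Replicate 3 of YJT was lowest for bone genes, with an osteoblast score of -2.29 against 0.48 and -0.10 in the other YJT libraries. Each score is the median, over a list's genes, of how far their log2 CPM lies from the gene's mean in the 15 libraries. The labels name no separate animals behind the replicates. The edgeR p-values given here reflect only the spread within the groups of all 15 libraries, which may be biological or technical. Within YJT and within Model it was far above counting noise (chi-square per gene of 374 to 775). For many lists the lowest and highest medians with single libraries left out are given as the values the median lay between. For other lists only 1 end or neither is given, which does not mark them as stable.

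No gene passed the threshold. Of 17657 genes tested with edgeR's quasi-likelihood test, 0 (0.0%) had a Benjamini-Hochberg adjusted p under 0.05, and the smallest adjusted p was 0.175. Before adjustment, 727 genes (4.12%) were higher in YJT with p under 0.05 and 435 genes (2.46%) were lower, 1162 (6.58%) in all. DESeq2, run as another tool on the same counts, called 87 genes higher (0.493% of 17645) and 9 lower (0.051%). Of the 87, 15 had no count in any Model library. In 1206 genes (6.83%) all 3 YJT libraries lay above all 3 Model libraries, and in 868 genes (4.92%) all lay below. Over all tested genes 48.22% had a positive and 51.76% a negative log2 fold change, with a median of -0.02. The balance of the 2 directions depended on scaling. With TMM, 62.6% of the genes with unadjusted p under 0.05 were higher, against 26.4% with no scaling factors, 23.6% with limma on log2(FPKM + 1) and 22.8% with log2(FPKM + 0.1). In those fits the median of all genes lay at -0.16, -0.14 and -0.17. Replicate 1 of YJT also moved that balance, to 47.2% higher without it. Without replicate 3 of Model it was 79.7%, without replicate 1 of Model 73.1%, with only the 6 libraries fitted 74.6%, and for genes with a mean of at least 5 FPKM 50.7%. Leaving out replicate 1 of Model gave 1757 genes under an unadjusted 0.05, replicate 2 of Model 770 and replicate 2 of YJT 745.

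Genes of skeletal muscle were higher in YJT. In 5 lists of muscle genes, 79 genes were tested, all 79 had a positive fold change, and 65 had an unadjusted p under 0.05 on the higher side, beside 4.12% of all genes. In 73 of the 79 all YJT libraries lay above all Model libraries, beside 6.83% of all genes. Their median log2 fold change was 2.30, with a range of 0.22 to 3.78. DESeq2 called 17 of them, and edgeR with Benjamini-Hochberg adjustment called 0. In bulk bone, fewer muscle cells in a sample and less muscle RNA per cell cannot be told apart. The summed level of 5 skeletal muscle markers ran from 141 to 628 CPM in Model and from 2423 to 2837 CPM in YJT, and from 3021 to 4679 CPM in Blank. In 71 of the 79 genes all Blank libraries lay above all Model libraries, and for the marker sums Model was the lowest of Blank, Model and YJT. The amount of attached muscle in each sample is not recorded in the labels, and its part in these values was not tested.

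Replicate 2 of Model was the lowest of the 6 libraries for 72 of the 79 muscle genes. Without it 41 genes had an unadjusted p under 0.05, and without replicate 1 of Model 46, in each case with all 79 still higher. Without replicate 1 of YJT the count was 49, with no scaling factors 54, and without both replicate 3 of YJT and replicate 2 of Model 42.

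Tnnc1, the calcium-binding troponin C of slow and cardiac muscle, had the smallest p of the genes in the muscle lists and stood at 21.1, 16.1 and 27.5 CPM in Model and 117, 109.6 and 55.2 CPM in YJT (log2 fold change 2.12, SE 0.36, edgeR's Benjamini-Hochberg adjusted p = 0.175). No YJT library came near the Model range, and replicate 3 was the lowest of YJT. Its Blank values were 76, 69.3 and 79.2 CPM. Tnnt1, the slow skeletal troponin T, was at 14.4, 2.09 and 42.1 CPM in Model and 185, 137 and 65.6 CPM in YJT (log2 fold change 2.73, SE 0.87). Myh7, the slow myosin heavy chain, was at 23.2, 0.464 and 97 CPM in Model and 431, 309 and 187 CPM in YJT (log2 fold change 2.94, SE 1.33). In both genes replicate 2 of Model was far below its group and every YJT library was above every Model library. In the slow-fibre list 12 of 13 members had an unadjusted p under 0.05, with a median of 2.47 that lay between 1.95 without replicate 2 of Model and 4.01 without replicate 3 of Model.

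Fast-fibre genes were higher too. Myh4, the myosin heavy chain of the fastest fibres, was at 137, 20.2 and 124 CPM in Model and 569.7, 499 and 669 CPM in YJT (log2 fold change 2.62, SE 1.3), and Blank at 757, 576 and 1016 CPM. The groups did not overlap, although its unadjusted p was 0.064. Mylk2, a kinase of myosin light chain in skeletal muscle, was at 64.6, 35.5 and 37.9 CPM in Model and 91.3, 189 and 157 CPM in YJT (log2 fold change 1.66, SE 0.43). Of 13 fast-fibre genes 7 had an unadjusted p under 0.05 and 12 separated the groups, with a median of 2.30. A test of slow against fast genes was not made, and the median of the 2 lists differed by less than the range within either.

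Among sarcomere and Z-disc genes 17 of 18 had an unadjusted p under 0.05, all higher, with a median of 2.50. Acta1, skeletal alpha-actin, was at 181, 30.7 and 260.3 CPM in Model and 1218, 1063 and 968 CPM in YJT (log2 fold change 2.78, SE 0.99). As a share of all counts it was 0.0172% ± 0.0129 in Model, 0.106% ± 0.0128 in YJT and 0.168% ± 0.0558 in Blank (SD, n = 3), and an exact two-sided permutation test of YJT against Model gave p = 0.1, the smallest that 3 against 3 libraries allow. Itgb1bp2, the muscle integrin-binding protein melusin, was at 2.65, 2.94 and 3.8 CPM in Model and 7.49, 7.98 and 6.44 CPM in YJT (log2 fold change 1.22, SE 0.22, edgeR's Benjamini-Hochberg adjusted p = 0.237). This was among the tightest of the muscle genes, with both groups spread over less than 2 CPM. Tmod4, which caps thin filaments, was at 4.54, 2.15 and 7.81 CPM in Model and 25.3, 25.1 and 18.8 CPM in YJT (log2 fold change 2.25, SE 0.54), and Myom1, an M-band protein, at 6.83, 1.84 and 6.62 CPM in Model and 30.02, 23.4 and 19.2 CPM in YJT (log2 fold change 2.25, SE 0.54).

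Genes that link the nerve impulse to calcium release were higher as well, with 15 of 18 members under an unadjusted 0.05 and a median of 2.39. Jph1, a junctophilin that holds the surface membrane against the calcium store, was at 2.21, 0.787 and 1.24 CPM in Model and 9.8, 7.11 and 8.4 CPM in YJT (log2 fold change 2.58, SE 0.52, edgeR's Benjamini-Hochberg adjusted p = 0.400). Stac3, required for the surface calcium channel to reach the ryanodine receptor, was at 1.74, 0.674 and 3.58 CPM in Model and 13.3, 13.4 and 12.6 CPM in YJT (log2 fold change 2.71, SE 0.58). The YJT libraries of Stac3 lay within 1 CPM of each other, while Model spread from 0.674 to 3.58. Tmem38a, a potassium channel of the calcium store, was at 12.2, 6.8 and 16.8 CPM in Model and 70.9, 63.6 and 54.1 CPM in YJT (log2 fold change 2.40, SE 0.58). Chrnb1, a subunit of the acetylcholine receptor at the nerve-muscle junction, was at 1.05, 0.435 and 0.595 CPM in Model and 2.96, 2.05 and 2.27 CPM in YJT (log2 fold change 1.80, SE 0.45).

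**Figure D1:**
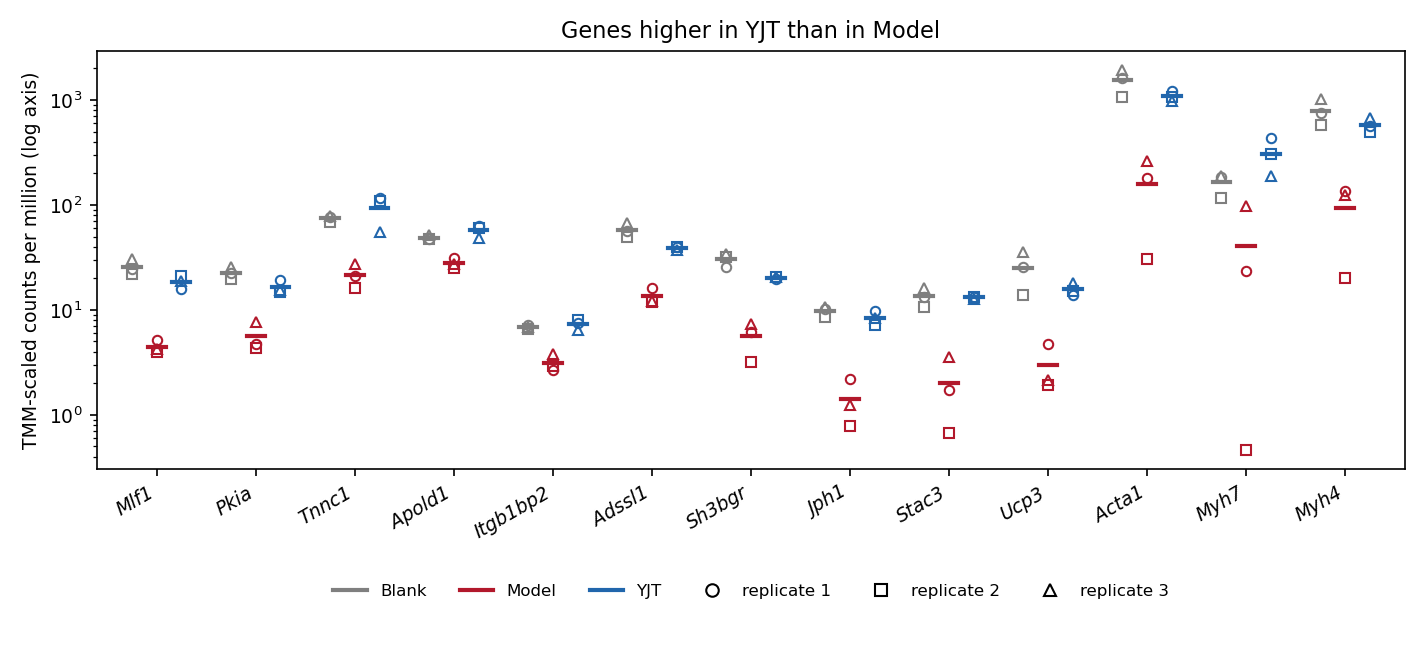
Levels in CPM (log axis) of 13 genes that were higher in YJT, by group (Blank, Model, YJT), with 1 point per library, its shape giving the replicate number, and a bar at the group mean. Every YJT point lies above every Model point for each gene shown, as for Tnnc1 with 21.1, 16.1 and 27.5 CPM in Model and 117, 109.6 and 55.2 CPM in YJT. For Mlf1, Pkia, Tnnc1, Apold1, Itgb1bp2, Adssl1, Sh3bgr, Jph1 and Stac3 this was fixed by the way they were chosen.

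Genes of muscle energy supply were higher in 17 of 17 cases, 14 with an unadjusted p under 0.05, with a median of 2.12. Adssl1, the adenylosuccinate synthase of muscle, was at 16.3, 11.8 and 12.2 CPM in Model and 39.4, 40.1 and 37.4 CPM in YJT (log2 fold change 1.54, SE 0.28, edgeR's Benjamini-Hochberg adjusted p = 0.244). Blank stood higher still, at 56.1, 49.8 and 67.4 CPM. Slc2a4, the insulin-responsive glucose carrier GLUT4, was at 14.7, 4.66 and 14.6 CPM in Model and 42.9, 36.8 and 29.6 CPM in YJT (log2 fold change 1.69, SE 0.43). Pfkm, the muscle phosphofructokinase, was at 50.2, 26.8 and 43 CPM in Model and 104, 99.4 and 111 CPM in YJT (log2 fold change 1.39, SE 0.36). Ckm, muscle creatine kinase, was at 85.8, 27.1 and 83.1 CPM in Model and 393, 452 and 368 CPM in YJT (log2 fold change 2.63, SE 1.02). The groups did not overlap in any of these genes.

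Most regulators of muscle identity were low in level, and 4 of them reached a mean of 5 FPKM. Of 14 myogenic and satellite cell genes 9 were higher and 5 lower. On the higher side 3 had an unadjusted p under 0.05, beside 4.12% of all genes. The median of 2.14 became -0.59 among the 4 that reached a mean of 5 FPKM. Myog, a transcription factor of differentiating muscle, was at 0.365, 0.0562 and 0.662 CPM in Model and 3.16, 2.56 and 0.842 CPM in YJT (log2 fold change 2.59, SE 0.75), and DESeq2 called it with a Benjamini-Hochberg adjusted p of 0.049. The embryonic myosin Myh3 was at 0.126, 1.36 and 1.89 CPM in Model and 7.19, 9.49 and 2.77 CPM in YJT, and the perinatal myosin Myh8 at 0, 0 and 0.203 CPM in Model and 2.56, 0.933 and 2.11 CPM in YJT. For Myh8 the Model values rest on so few counts that no fold is given. Megf10, a receptor of satellite cells that other cells also carry, had lower values, at 48.4, 57.6 and 69.7 CPM in Model and 42.6, 19.7 and 9.67 CPM in YJT (log2 fold change -1.29, SE 0.61). The 14 genes of muscle wasting and FoxO signalling had a median of 0.30, between 0.21 and 0.41 with single libraries left out. Of them 3 had an unadjusted p under 0.05. They were Bnip3, a mitophagy receptor, at 23.6, 18.8 and 30.7 CPM in Model and 82.2, 50.9 and 33.6 CPM in YJT, Trim63, the ubiquitin ligase MuRF1, at 3.67, 0.997 and 7.09 CPM in Model and 24.5, 15 and 15.3 CPM in YJT, and Mstn, the growth inhibitor myostatin, at 0.155, 0 and 0.108 CPM in Model and 1.42, 1.4 and 0.588 CPM in YJT. The FoxO factors themselves had log2 fold changes of -0.16 (Foxo1), 0.46 (Foxo3) and 0.25 (Foxo4).

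A MEF2 box, the A and T rich site of muscle transcription factors, was found in 9 of the 64 promoters at hand for the 79 muscle genes (14.1%), against 3.37% of 27457 rat promoters of the same length. The CArG box of serum response factor was found in 4 of 64 (6.25%), Acta1, Ldb3, Myh4 and Myl3, against 1.64%. Promoters run from 250 bases before to 50 after the RefSeq gene start in GRCr8, and both strands were searched. A match describes the letters only.

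Several of the genes with the smallest p belonged to none of the muscle lists. Those lists do not hold every gene of muscle, so this does not set the genes apart from muscle. The part of muscle in their values was not tested. Mlf1, named after a leukaemia fusion, had the smallest p of all, at 5.14, 3.93 and 4.22 CPM in Model and 15.7, 21 and 18.7 CPM in YJT (log2 fold change 2.06, SE 0.32, edgeR's Benjamini-Hochberg adjusted p = 0.175). Blank values were 24.4, 21.9 and 30.7 CPM. Pkia, an inhibitor of the cyclic AMP-dependent kinase, was at 4.73, 4.35 and 7.74 CPM in Model and 19.4, 14.7 and 15.4 CPM in YJT (log2 fold change 1.56, SE 0.26, adjusted p = 0.175 in the same edgeR fit). In both genes the lowest YJT library was well above the highest of Model. Apold1, an early response gene of endothelium, was at 30.9, 24.9 and 27.3 CPM in Model and 62.9, 59.7 and 48.7 CPM in YJT (log2 fold change 1.04, SE 0.18), with Blank at 47.1, 47.8 and 51.6 CPM, above Model and overlapping YJT. Of 16 endothelial genes Apold1 was the only one with an unadjusted p under 0.05, beside 4.12% of all genes on the higher side. The list's median of 0.07 changed sign under 5 of 16 other settings. Pla2g12a, a secreted phospholipase, was at 6.98, 5.97 and 9.77 CPM in Model and 19.996, 19.1 and 13.8 CPM in YJT (log2 fold change 1.22, SE 0.23). Aldh1a1, which makes retinoic acid from retinal, was at 1.19, 1.07 and 1.05 CPM in Model and 7.09, 3.95 and 5.81 CPM in YJT (log2 fold change 2.34, SE 0.52). Its Model values were nearly equal and Blank was at 5.38, 4.93 and 7.34 CPM. Sh3bgr was at 6.18, 3.2 and 7.4 CPM in Model and 19.6, 20.5 and 20.7 CPM in YJT (log2 fold change 1.85, SE 0.35). Camk2b, a calmodulin-dependent kinase, was at 2.33, 2.5 and 5.26 CPM in Model and 12.9, 11.3 and 8.3 CPM in YJT (log2 fold change 1.68, SE 0.36). Alpk3, a kinase of heart and skeletal muscle, Fitm1, which helps form lipid droplets, and the PDZ protein Magix completed the first 15, with log2 fold changes of 2.75, 2.49 and 1.83. These 15 genes had edgeR's Benjamini-Hochberg adjusted p between 0.175 and 0.657, and all kept their direction under the 16 other settings. They include Tnnc1, Itgb1bp2, Adssl1, Jph1 and Stac3 of the muscle lists, and each separated the groups by the way it was chosen.

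Enzymes of fatty acid oxidation were higher throughout by small amounts. All 23 tested members had a positive fold change, beside 48.22% of all genes, and 11 had an unadjusted p under 0.05, beside 4.12%. Their median was 0.34. No member passed edgeR's adjusted threshold. Mlycd, malonyl-CoA decarboxylase, which relieves the block on fatty acid entry into mitochondria, was at 17.1, 20.03 and 18 CPM in Model and 28.5, 26.1 and 25.4 CPM in YJT (log2 fold change 0.54, SE 0.13), and DESeq2's adjusted p for it was 0.0043. The distance between the groups was larger than the spread within either. Hadhb, the beta subunit of the trifunctional enzyme, was at 93.6, 91.4 and 92.6 CPM in Model and 121, 153 and 131 CPM in YJT (log2 fold change 0.55, SE 0.14). Its 3 Model libraries lay close together, below every YJT library. Larger differences were seen for Ucp3, an uncoupling protein of muscle mitochondria, at 4.78, 1.94 and 2.15 CPM in Model and 13.8, 15.1 and 18.2 CPM in YJT (log2 fold change 2.41, SE 0.57), and Cpt1b, the muscle gatekeeper of fatty acid entry, at 6.74, 4.94 and 9.67 CPM in Model and 28.1, 22.2 and 14.2 CPM in YJT (log2 fold change 1.60, SE 0.43). Pdk4, which turns pyruvate away from the citric acid cycle, was at 9.61, 0.871 and 13.6 CPM in Model and 47.6, 28.5 and 36.2 CPM in YJT (log2 fold change 2.22, SE 0.83). Muscle expresses all of these enzymes, and the muscle marker sums given above differed between the same libraries, so that their part in these values was not tested. With no scaling factors the median was 0.20, set against a shift of all genes to -0.16.

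Genes of lipid handling beyond oxidation gave few single genes. The counts below stand beside 4.12% of all genes higher with an unadjusted p under 0.05 and 48.22% with a positive fold change. Among 14 PPAR and lipid genes 2 had an unadjusted p under 0.05, with a median of 0.29 that was 0.05 without replicate 2 of Model, 0.13 without replicate 1 of YJT and 0.03 with limma on log2(FPKM + 1). Fabp4, a fatty acid carrier of fat cells and capillaries, was at 82.3, 23.2 and 57 CPM in Model and 167, 77.4 and 84.2 CPM in YJT (log2 fold change 1.02, SE 0.38), with the ranges overlapping, and Plin5, a lipid droplet protein of oxidative tissue, at 0.421, 0 and 0.392 CPM in Model and 1.69, 2.36 and 1.04 CPM in YJT. Ppargc1a, the coactivator that drives mitochondrial programmes, was at 0.295, 0 and 1.16 CPM in Model and 0.697, 0.866 and 0.561 CPM in YJT, and changed sign without replicate 2 of Model. The 13 protein genes of the mitochondrial genome were all higher, 2 with an unadjusted p under 0.05. Their median of 0.78 lay between 0.62 and 1.0 with single libraries left out. Mt-nd5, a subunit of complex I, was at 2622, 2378 and 3809 CPM in Model and 6425, 7258 and 3931 CPM in YJT (log2 fold change 1.0, SE 0.40), and Blank was at 1606, 2944 and 2178 CPM. Mitochondrial transcripts took 11.3% ± 1.93 of the counts in Model and 17.3% ± 5.03 in YJT (SD, n = 3, exact two-sided permutation p = 0.3). Replicate 3 of YJT, at 11.8%, lay inside the Model range of 9.17% to 12.9%. Nuclear genes of the same chain had a median of 0.03, which changed sign under 4 of 16 other settings, and 1 of 26, Atp5mc1 of the ATP synthase, had an unadjusted p under 0.05, at 49.97, 60.6 and 53.3 CPM in Model and 70.2, 80.7 and 66.5 CPM in YJT. Glycolysis and hypoxia genes had 2 of 21 under an unadjusted 0.05 with a median of 0.20 that lay between 0.10 without replicate 3 of YJT and 0.32 without replicate 1 of Model. Aldoa, the aldolase of muscle and red cells, was one of them, at 395, 292 and 297 CPM in Model and 557, 542 and 571 CPM in YJT (log2 fold change 0.76, SE 0.24).

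**Figure D2:**
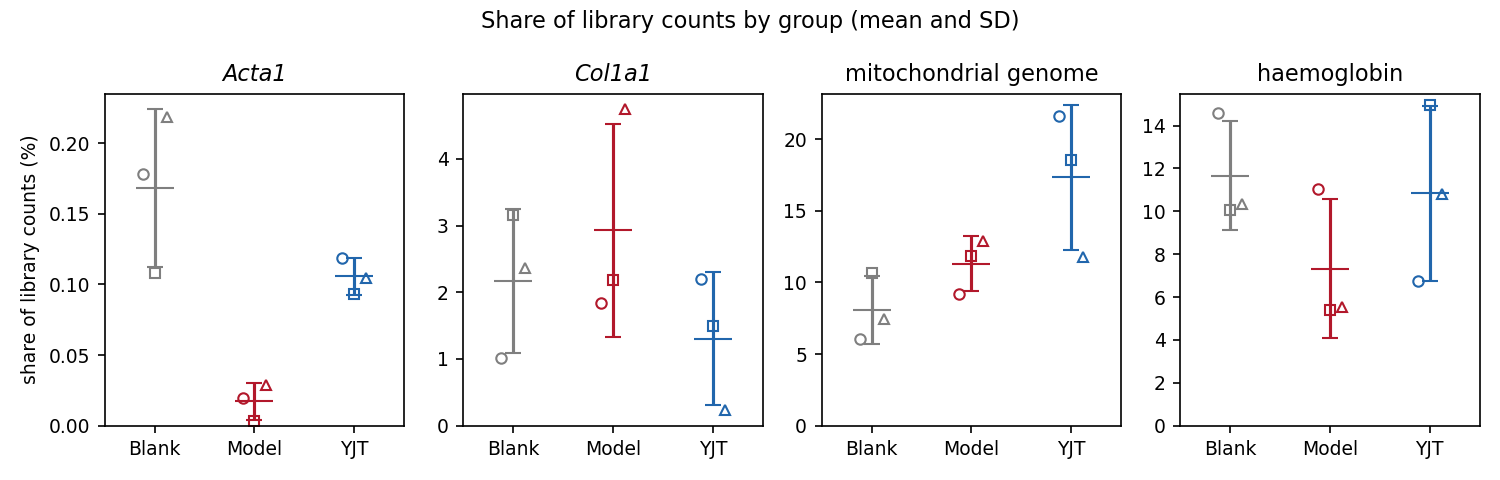
Percent of all counts per library taken by Acta1, Col1a1, the mitochondrial genome and haemoglobin, in Blank, Model and YJT, with the mean and SD of each group (n = 3). Acta1 separates YJT from Model (0.106% against 0.0172% on average), while Col1a1, mitochondrial and haemoglobin shares overlap.

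Chaperones of the endoplasmic reticulum were lower in YJT as a group. Of 32 genes of these chaperones and the unfolded protein response 29 were lower, beside 51.76% of all genes. On the lower side 12 had an unadjusted p under 0.05, beside 2.46%. In 13 members all YJT libraries lay below all Model libraries, beside 4.92% of all genes, and none lay above. The median log2 fold change was -0.36, a small difference, and no member passed edgeR's adjusted threshold. Of the 9 genes that DESeq2 called lower, 3 were in this list, Pdia4, Hsp90b1 and Calr.

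The stretches of promoter shown here carry the endoplasmic reticulum stress element, the site through which ATF6 and NF-Y are known to switch these genes on. Its letters CCAAT, 9 bases of any kind and CCACG, searched on both strands, were found in 8 of the 25 promoters at hand for the 32 genes (32.0%) and in 21 of 27457 rat promoters (0.0765%). The 5 windows are those of members with an unadjusted p under 0.05 that hold it. Capitals mark the outer 5 bases at each end of the element, or of its complement where it lies on the other strand, and Hsp90b1 holds the element at 2 places. All are upstream of the gene start, in RefSeq's GRCr8 build, written 5′ to 3′ on the gene's strand.
Hspa5, chr3:38452963-38453001 (+): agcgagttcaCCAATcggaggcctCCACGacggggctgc
Hsp90b1, chr7:23012337-23012479 (-): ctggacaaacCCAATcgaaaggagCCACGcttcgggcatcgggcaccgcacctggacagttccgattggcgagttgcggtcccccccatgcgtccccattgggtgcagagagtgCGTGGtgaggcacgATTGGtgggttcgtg
Calr, chr19:40213125-40213163 (+): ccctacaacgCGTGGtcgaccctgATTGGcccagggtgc
Dnajc3, chr15:102432524-102432562 (+): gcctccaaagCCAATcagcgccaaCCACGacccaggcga
Creld2, chr7:121789229-121789267 (+): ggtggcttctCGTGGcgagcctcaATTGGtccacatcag
Canx, Derl3 and Xbp1 also hold the element, with unadjusted p of 0.281, 0.186 and 0.069. The related letters ATTGG, 1 base of any kind and CCACG were found in 3 of 25 promoters, Dnajb11, Herpud1 and Hyou1, against 0.0546% of all, and TGACGTGG in 1, Hyou1, against 0.637%. A match is a description of the letters and was not tested against the differences in level.

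Hspa5, the chaperone BiP that binds unfolded chains, was at 472, 521 and 571 CPM in Model and 344, 253 and 336 CPM in YJT (log2 fold change -0.75, SE 0.20, edgeR's Benjamini-Hochberg adjusted p = 0.706). Hsp90b1, the lumenal HSP90 known as GRP94, was at 539.9, 596 and 573 CPM in Model and 418, 338 and 377 CPM in YJT (log2 fold change -0.59, SE 0.16, DESeq2 adjusted p = 0.013). In both, the highest YJT library was below the lowest of Model, and Blank was at 498, 315 and 370.3 CPM for Hspa5 and 476, 371 and 427 CPM for Hsp90b1. Blank reached from the YJT range into the Model range for Hspa5, and from the YJT range to between the groups for Hsp90b1. Pdia4, a disulphide isomerase, had the smallest p of the lower genes, at 123, 127 and 141 CPM in Model and 83.4, 67 and 76.1 CPM in YJT (log2 fold change -0.79, SE 0.18, edgeR's Benjamini-Hochberg adjusted p = 0.657). Creld2, a disulphide isomerase-like protein induced by stress in this compartment, was at 37.2, 54.5 and 46.7 CPM in Model and 26.7, 25.9 and 30.02 CPM in YJT (log2 fold change -0.74, SE 0.19). The calcium-binding lectin chaperone Calr was at 699.5, 737 and 738 CPM in Model and 533, 446 and 517 CPM in YJT (log2 fold change -0.54, SE 0.16). Each of these separated the groups, with a distance that was small beside the level.

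The cofactors followed in the same direction. Dnajb9, Dnajb11 and Dnajc3, which feed clients to Hspa5, had log2 fold changes of -0.54, -0.33 and -0.37, and its exchange factor Hyou1 -0.52. The isomerases Pdia3 and Pdia6 stood at -0.44 and -0.42, and Sel1l, a scaffold of the degradation complex, at -0.31. The sensors of the response were near 0 or higher, with -0.02 for Atf6, -0.06 for the kinase PERK (Eif2ak3) and 0.38 for IRE1 (Ern1), and an unadjusted p of 0.139 for the last. Xbp1, the transcription factor made active by IRE1, was at 59.7, 56.9 and 63.8 CPM in Model and 57.2, 38 and 44.2 CPM in YJT (log2 fold change -0.37, SE 0.19). Its replicate 1 of YJT lay inside the Model range.

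The count of 12 ranged from 7 to 13 when single libraries were left out, was 6 with only the 6 libraries fitted and 15 with no scaling factors, and without replicate 3 of YJT and replicate 2 of Model together the median was -0.25. Replicate 2 of Model was the highest library for 17 of the 32 genes, and replicate 2 of YJT the lowest for 15. Levels of osteoblast, plasma cell and B cell markers, cells that secrete much protein or become cells that do, were lower in some of the same libraries. The summed plasma cell markers (3 of 3 present) ran from 251 to 391 CPM in Model and from 192 to 294 CPM in YJT, and the B cell markers (3 of 3) from 174 to 369 CPM in Model and from 114 to 193 CPM in YJT. The osteoblast markers (5 of 5) ran from 18885 to 47587 CPM in Model and from 2504 to 25630.0 CPM in YJT. Their part in the chaperone values was not tested.

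**Figure D3:**
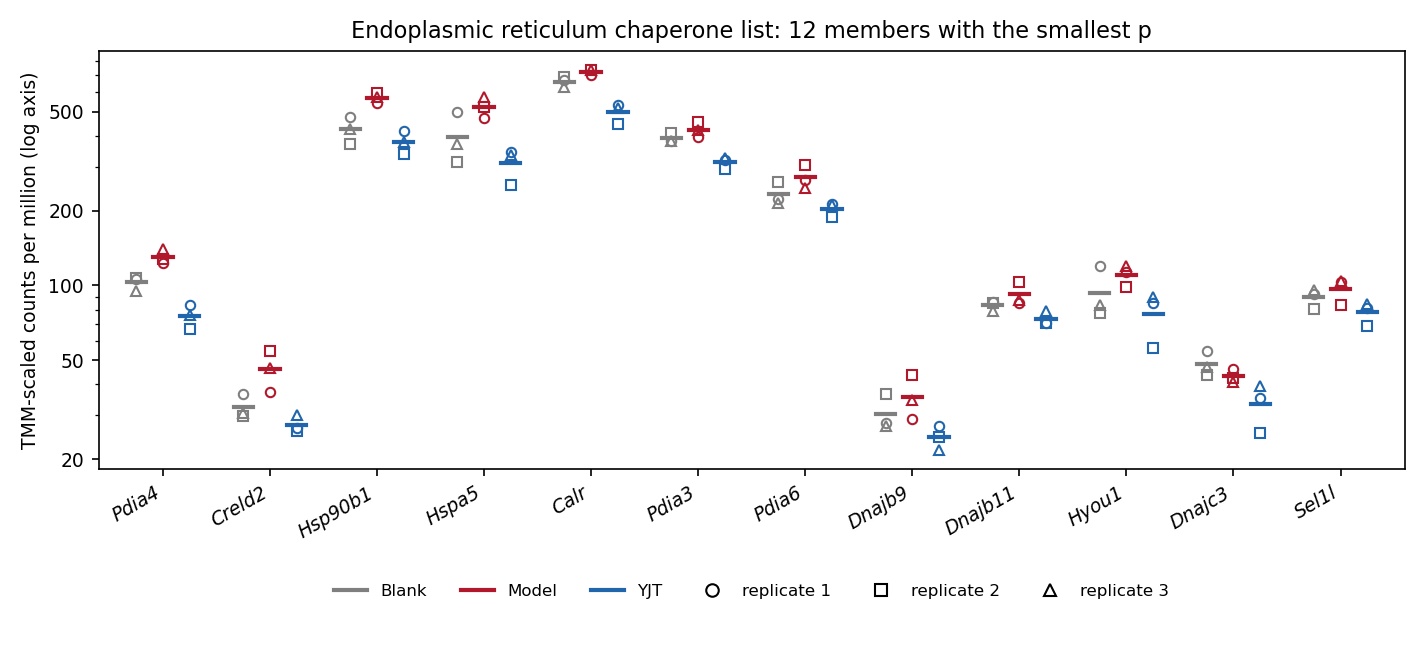
Levels in CPM (log axis) of the 12 members of the endoplasmic reticulum list with the smallest p, by group (Blank, Model, YJT), with 1 point per library and a bar at the group mean. YJT lies below Model for 11 of the 12 without overlap, as for Pdia4 at 83.4, 67 and 76.1 CPM against 123, 127 and 141 CPM, and Sel1l overlaps.

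Heat shock proteins outside that compartment went in 2 directions. Of 22 tested, 5 were higher and 7 lower with an unadjusted p under 0.05, beside 4.12% and 2.46% of all genes. Their median was -0.20. The 5 higher genes were Hspb6, Hspb8, Hspb7, Hspb1 and Cryab, small heat shock proteins abundant in muscle, of which Hspb7, Hspb1 and Cryab were picked out after their values were seen. Hspb6 was at 12.4, 4.48 and 25.9 CPM in Model and 97, 66.9 and 52.1 CPM in YJT (log2 fold change 2.33, SE 0.56), and Hspb8 at 4.16, 1.35 and 10.9 CPM in Model and 28.8, 18.8 and 15.9 CPM in YJT (log2 fold change 1.95, SE 0.67). The lower genes included Hspa8, the constitutive HSP70, at 697, 1247 and 787 CPM in Model and 627, 513 and 609.8 CPM in YJT (log2 fold change -0.64, SE 0.24), and its cofactor Dnaja1 at 166, 435 and 201 CPM in Model and 161, 150.4 and 138 CPM in YJT (log2 fold change -0.83, SE 0.30). Replicate 2 of Model was far above all other libraries for Dnaja1 and the highest of the 6 for 13 of the 22 genes. Without it 0 genes were lower with an unadjusted p under 0.05, and the median was -0.05. Hspa8 has near-identical processed copies in rodent genomes, so its reads may be split.

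The integrated stress response, which ATF4 directs, showed no such direction. The median of 0.15 over 19 genes lay between 0.10 without replicate 1 of YJT and 0.27 without replicate 1 of Model. On the higher side 1 gene had an unadjusted p under 0.05, beside 4.12% of all genes. This was Ppp1r15a, GADD34, which restores translation by removing the phosphate from eIF2alpha, at 63.4, 41.2 and 53.7 CPM in Model and 80.3, 129 and 99.2 CPM in YJT (log2 fold change 0.96, SE 0.33). Atf4 was at 265, 449 and 295 CPM in Model and 361, 377 and 295 CPM in YJT, and its direction changed under 6 of 16 other settings. Asns, asparagine synthetase, was at 67, 24.6 and 36.8 CPM in Model and 58.9, 88.1 and 86.7 CPM in YJT (log2 fold change 0.86, SE 0.41), and the groups overlapped.

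The other lower genes with the smallest p came from no single list. The organellar sodium-proton exchangers Slc9a9 and Slc9a7 were at 11.5, 9.9 and 12.5 CPM in Model and 7.37, 5.26 and 5.36 CPM in YJT (log2 fold change -0.91, SE 0.23) and at 6.9, 7.74 and 9.23 CPM in Model and 4.92, 4.03 and 3.7 CPM in YJT (log2 fold change -0.92, SE 0.27). Il10rb, a receptor subunit for interleukin 10 and related cytokines, was at 30.8, 35.9 and 29.9 CPM in Model and 22.8, 25.3 and 23.4 CPM in YJT (log2 fold change -0.44, SE 0.12, DESeq2 adjusted p = 0.021). Its 2 groups were narrow and did not overlap. Dpp4, the peptidase that inactivates incretins and chemokines, was at 56.7, 128 and 77 CPM in Model and 20.4, 45.6 and 46.4 CPM in YJT (log2 fold change -1.22, SE 0.36). Gsap, a modulator of gamma-secretase, was at 45, 45.1 and 41.9 CPM in Model and 35.9, 28.6 and 30.9 CPM in YJT (log2 fold change -0.47, SE 0.12), and Cyp4v3, a fatty acid hydroxylase, at 34.3, 53.1 and 42.9 CPM in Model and 28.6, 10.4 and 12.4 CPM in YJT (log2 fold change -1.34, SE 0.37). Arhgap12, a GTPase-activating protein, Ermp1, a peptidase of the endoplasmic reticulum, and the zinc finger genes Zfp600, Zfp136 and Zfp606 had log2 fold changes of -0.97, -0.48, -0.84, -1.09 and -1.19. The 15 lower genes had edgeR's Benjamini-Hochberg adjusted p between 0.657 and 0.730, and each separated the groups by the way it was chosen.

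Bone-forming genes were lower on average, with Bmp3 the 1 member below all Model libraries and Wnt5a the 1 above. Of 21 osteoblast and matrix genes 18 had a negative fold change, beside 51.76% of all genes, and 0 had an unadjusted p under 0.05. Their median was -0.77. Col1a1, the main collagen of bone, was at 16736, 21029 and 43416 CPM in Model and 22494, 16927 and 2109 CPM in YJT (log2 fold change -0.97, SE 0.96). As a share of counts it was 2.93% ± 1.59 in Model and 1.3% ± 0.997 in YJT (SD, n = 3, exact two-sided permutation p = 0.3), with replicate 3 of YJT at 0.228%. Bglap, osteocalcin, was at 902, 2014 and 2209.8 CPM in Model and 1088, 1388 and 226 CPM in YJT (log2 fold change -0.92, SE 0.67). Replicate 3 of YJT was lowest by far in both genes and in 19 of the 21, and the other YJT libraries lay in the Model range. With single libraries left out the median lay between -1.44 without replicate 1 of YJT and -0.32 without replicate 3 of YJT. Without both replicate 3 of YJT and replicate 2 of Model it was -0.16. The transcription factors Runx2 and Sp7 had log2 fold changes of -0.58 (SE 0.44) and -0.89 (SE 0.75), and Alpl, the phosphatase of mineralizing cells, -0.48 (SE 0.70). Spp1, osteopontin, was at 1997, 3365 and 4204 CPM in Model and 2549, 1013 and 433 CPM in YJT, and the BMP antagonist Bmp3 at 40.1, 39.4 and 61.1 CPM in Model and 31.5, 21.6 and 2.77 CPM in YJT. Postn, periostin, and Wnt5a were higher on average, at 99.5, 167 and 231 CPM in Model and 252, 449 and 122 CPM in YJT and at 7.44, 5.62 and 9.27 CPM in Model and 12.3, 9.86 and 12.1 CPM in YJT, with unadjusted p of 0.179 and 0.163.

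Osteocyte genes had the lowest median of the bone lists, -1.33. Of 11 genes, 3 were lower with an unadjusted p under 0.05, beside 2.46% of all genes. In 4 all YJT libraries lay below all Model libraries, beside 4.92% of all genes. Dkk1, a secreted inhibitor of Wnt signalling, was at 2.37, 5.27 and 8.99 CPM in Model and 2.05, 0.866 and 0.187 CPM in YJT (log2 fold change -2.42, SE 0.83). Dmp1, a matrix protein that osteocytes need for phosphate balance, was at 348, 458 and 849 CPM in Model and 314, 201 and 44.8 CPM in YJT (log2 fold change -1.56, SE 0.69), and Mepe, another osteocyte matrix protein, at 80.2, 98.9 and 293 CPM in Model and 79.2, 58 and 16.4 CPM in YJT (log2 fold change -1.62, SE 0.70). In each, replicate 3 of YJT was lowest and replicate 3 of Model highest, and for Mepe and Dmp1 replicate 1 of YJT lay just under the lowest Model library. Sost, sclerostin, was at 2.43, 1.99 and 5.7 CPM in Model and 1.88, 1.18 and 0.802 CPM in YJT (log2 fold change -1.39, SE 0.85), while Blank, at 21.1, 5.7 and 17.3 CPM, was higher on average and reached down to the Model range. With single libraries left out the osteocyte median lay between -1.77 and -0.76, and without replicate 3 of YJT it was -1.10. Without replicate 3 of Model it was -0.76, with 0 genes under an unadjusted 0.05, and without replicate 3 of YJT and replicate 2 of Model -1.17. The 4 osteocyte markers summed to values from 506 to 1295 CPM in Model and from 63.7 to 433 CPM in YJT, without overlap, and from 692.7 to 1062 CPM in Blank.

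Osteoclast genes were also lower on average, with 18 of 20 negative, beside 51.76% of all genes, and a median of -0.81. On the lower side 2 had an unadjusted p under 0.05, beside 2.46% of all genes. Dcstamp, the membrane protein needed for osteoclast precursors to fuse, was at 4.54, 4.73 and 7.11 CPM in Model and 3.68, 1.53 and 0.708 CPM in YJT (log2 fold change -1.47, SE 0.67), and Rab38, a GTPase of lysosome-related organelles, at 20.2, 27.1 and 23.3 CPM in Model and 18.8, 9.91 and 9.99 CPM in YJT (log2 fold change -0.87, SE 0.36). Src, the kinase required for the ruffled border, was at 135, 85.4 and 112 CPM in Model and 78.4, 62.1 and 79.4 CPM in YJT (log2 fold change -0.60, SE 0.28). Ctsk, cathepsin K, was at 1870.3, 2772 and 2951 CPM in Model and 1979, 921 and 423 CPM in YJT (log2 fold change -1.19, SE 0.68), and Acp5, tartrate-resistant phosphatase, at 1005, 1580.1 and 1389 CPM in Model and 1731, 474 and 207 CPM in YJT (log2 fold change -0.72, SE 0.79). For those 2 enzymes replicate 1 of YJT lay inside or above the Model range and the others below it. With single libraries left out the osteoclast median lay between -1.21 and -0.60, and without replicate 3 of YJT it was -0.69. The 4 osteoclast markers summed to values from 2885 to 4362 CPM in Model and from 631 to 3719 CPM in YJT.

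RANKL, the cytokine Tnfsf11 that drives osteoclast formation, was low and lower in YJT, at 3.22, 2.18 and 1.96 CPM in Model and 1.39, 0.633 and 0.428 CPM in YJT (log2 fold change -1.58, SE 0.61, unadjusted p = 0.023, edgeR's Benjamini-Hochberg adjusted p = 0.746). Its decoy receptor osteoprotegerin, Tnfrsf11b, was at 23, 6.2 and 10.1 CPM in Model and 28.5, 5.08 and 2.71 CPM in YJT, and its direction changed under 4 of 16 other settings. The groups did not overlap for the cytokine and overlapped fully for the decoy. Of 11 osteoclast-regulating cytokines 1 was lower with an unadjusted p under 0.05, beside 2.46% of all genes. The list's median of -0.07 changed sign under 4 of 16 settings. Csf1, the macrophage growth factor, was at 47.5, 47.8 and 78.2 CPM in Model and 59.7, 24.2 and 23.3 CPM in YJT, and Il34, which shares its receptor, at 1.38, 1.59 and 2.77 CPM in Model and 4.31, 3.1 and 2.45 CPM in YJT. Oestrogen receptors and targets had a median of -0.00 over 10 genes, with a sign that changed under 7 of 16 settings. Esr1, the main oestrogen receptor of bone, was at 4.78, 6.49 and 0.959 CPM in Model and 6.23, 2.81 and 2.0 CPM in YJT, with the groups overlapping. The 1 member with an unadjusted p under 0.05 was Esrrg, an orphan receptor rich in oxidative muscle, at 0.309, 0.0562 and 0.757 CPM in Model and 3.6, 1.43 and 1.11 CPM in YJT (log2 fold change 2.45, SE 0.83). Over all genes 4.12% were higher with such a p.

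Growth factor lists of bone had negative medians that moved with single libraries. In the BMP and TGF-beta list 3 of 26 had an unadjusted p under 0.05 on the lower side, beside 2.46% of all genes, with a median of -0.20 that lay between -0.66 without replicate 1 of YJT and -0.03 without replicate 3 of Model. Bmp2, a strong inducer of bone formation, was at 8.51, 15.4 and 15.5 CPM in Model and 7.72, 4.63 and 2.62 CPM in YJT (log2 fold change -1.40, SE 0.47), and Bmp4 at 10.8, 8.13 and 12.9 CPM in Model and 5.41, 4.4 and 2.82 CPM in YJT (log2 fold change -1.33, SE 0.48). Both separated the groups, with replicate 3 of YJT the lowest. The TGF-beta receptor Tgfbr1 was at 99.4, 86 and 134 CPM in Model and 90.1, 64.3 and 69.8 CPM in YJT (log2 fold change -0.51, SE 0.23). In the Wnt list Dkk1 was the 1 of 23 genes under an unadjusted 0.05, and the median of -0.31 lay between -0.54 without replicate 1 of YJT and -0.07 without replicate 3 of Model. The Wnt inhibitors Sfrp1 and Sfrp2 had log2 fold changes of -1.14 and -0.50, and the receptor Fzd4 0.76. Of 14 IGF and growth hormone genes 0 had an unadjusted p under 0.05 in either direction, with a median of -0.28 that lay between -0.71 without replicate 1 of YJT and -0.09 without replicate 3 of YJT. Igfbp4, an IGF-binding protein, was at 137, 145 and 177 CPM in Model and 132, 69.9 and 34.9 CPM in YJT, and Igf2 at 12.6, 3.88 and 9.92 CPM in Model and 20.7, 12.6 and 15.3 CPM in YJT. Matrix proteases had a median of -0.46 over 17 genes, between -0.97 without replicate 1 of YJT and -0.15 without replicate 3 of YJT. Timp4, an inhibitor of these enzymes, averaged higher, at 1.33, 1.03 and 3.5 CPM in Model and 9.68, 2.6 and 4.72 CPM in YJT. The collagenase Mmp13 averaged lower, at 1810.4, 1890.0 and 2926 CPM in Model and 2136, 621 and 332 CPM in YJT. The groups overlapped in both genes. Mineral and phosphate genes had a median of -0.20 over 14, between -0.60 without replicate 1 of YJT and -0.01 without replicate 1 of Model, with 0 under an unadjusted 0.05.

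Cartilage genes rested on single libraries. The 21 chondrocyte genes had a median of 0.65 with 0 under an unadjusted 0.05, and without replicate 1 of YJT the median was -2.11. The chondrocyte scores of the 3 YJT libraries were 2.72, -0.39 and -3.66. The 4 cartilage markers summed to values from 277 to 7083 CPM in Model and from 144 to 18016 CPM in YJT.

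**Figure D4:**
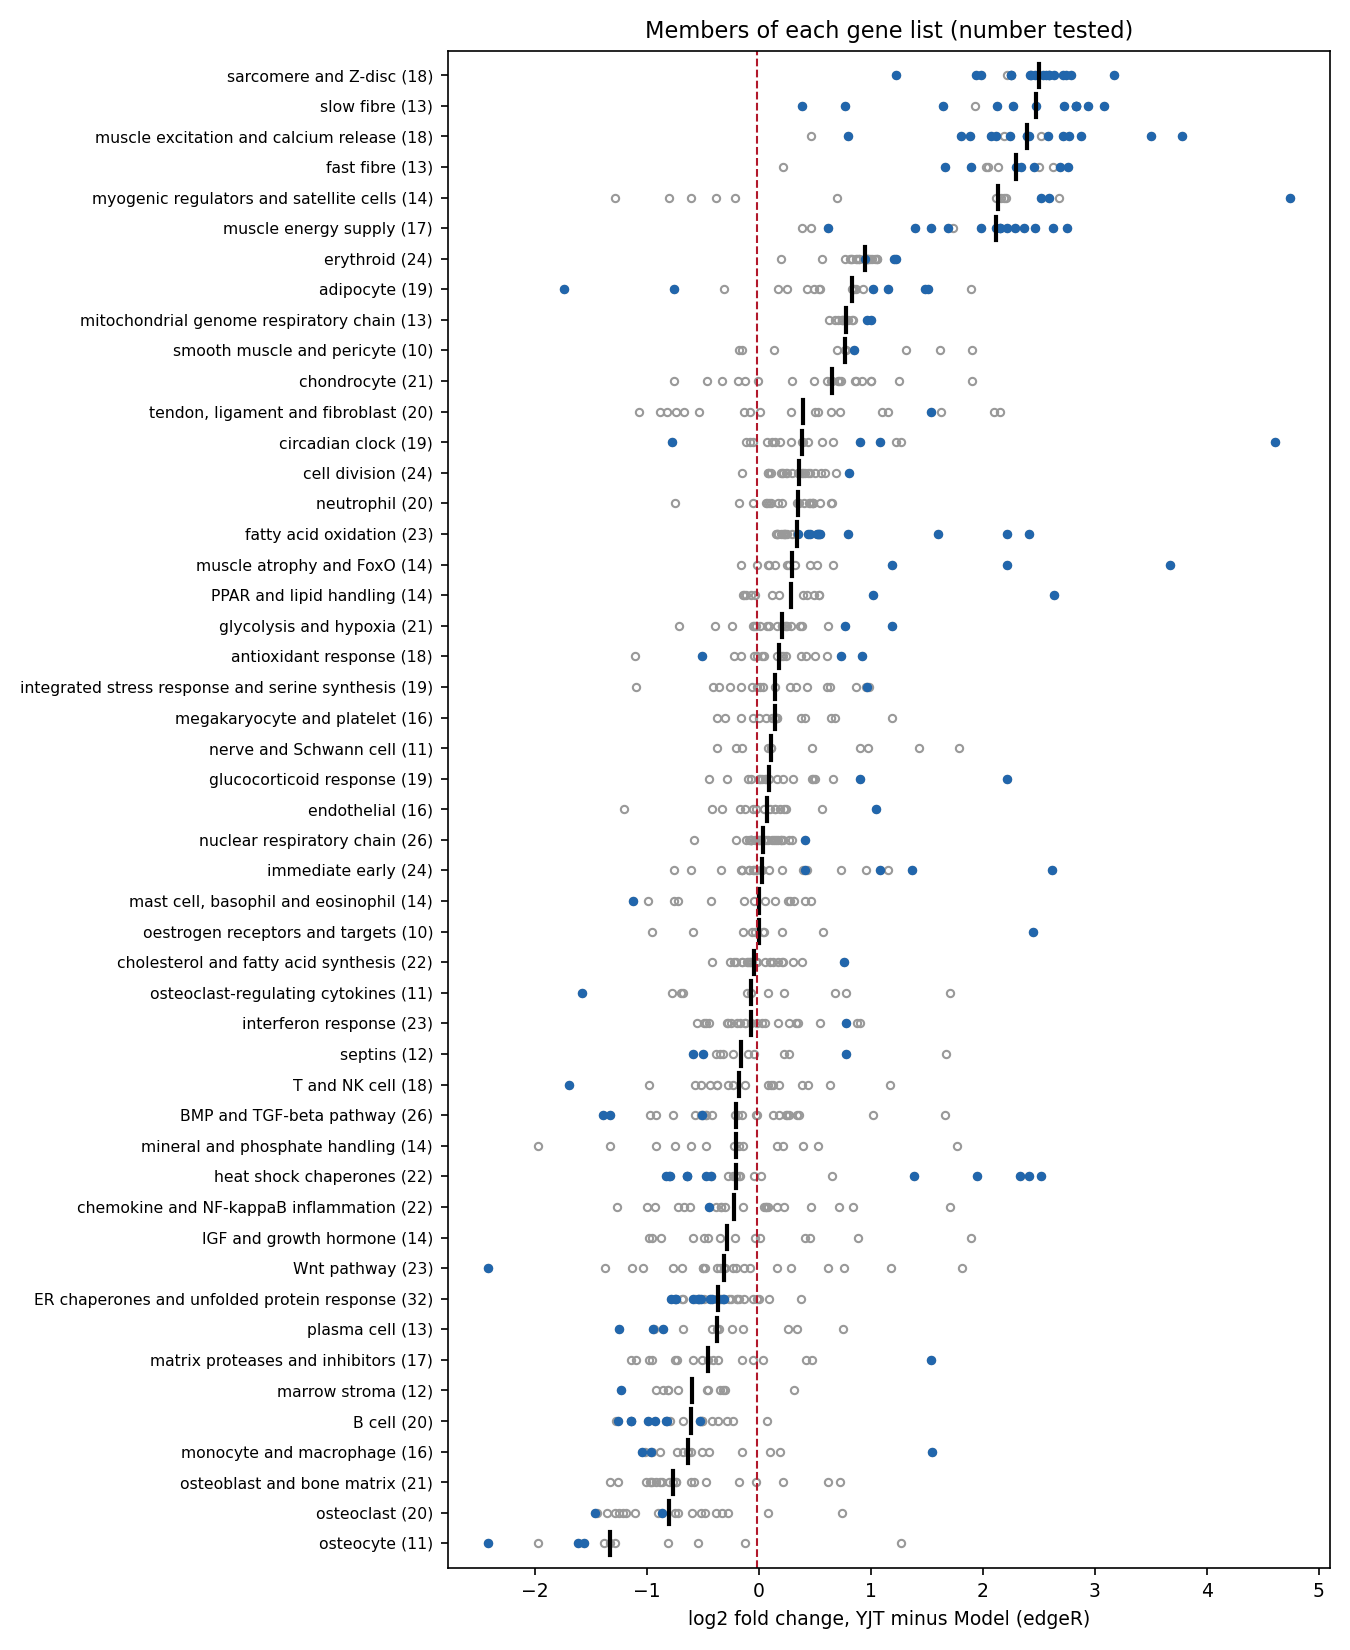
Log2 fold changes (YJT minus Model) of the tested members of the gene lists, with 1 point per gene, filled blue where the unadjusted p was under 0.05, a black bar at each list's median and a red dashed line at the median of all genes (-0.02). The muscle lists lie to the right with medians from 2.12 to 2.50, and the osteocyte list lies furthest to the left at -1.33.

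Most adipocyte genes had a positive fold change, with members under an unadjusted 0.05 in both directions. Of 19 adipocyte genes 16 were higher, 4 with an unadjusted p under 0.05 and 2 lower, beside 4.12% and 2.46% of all genes. The median of 0.83 was 0.29 without replicate 2 of Model, 0.37 without replicate 1 of YJT, and at most 1.03 with any single library left out. Acacb, the acetyl-CoA carboxylase that restrains fatty acid oxidation, was at 4.24, 1.85 and 4.49 CPM in Model and 13.7, 8.03 and 7.86 CPM in YJT (log2 fold change 1.48, SE 0.52), and Ca3, the carbonic anhydrase of muscle and fat, at 144, 139.6 and 302 CPM in Model and 635, 442 and 223 CPM in YJT (log2 fold change 1.15, SE 0.50). Adipoq, adiponectin, was at 20.9, 1.5 and 11.9 CPM in Model and 21.5, 4.63 and 14.6 CPM in YJT, with the groups overlapping and a direction that changed under 3 of 16 other settings. Pparg, the master regulator of fat cells, was at 7.11, 3.88 and 7.84 CPM in Model and 8.69, 2.88 and 3.55 CPM in YJT (log2 fold change -0.32), also overlapping. The 4 fat markers summed to values from 25.8 to 112 CPM in Model and from 83.8 to 212 CPM in YJT.

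Marrow stroma genes were lower in 11 of 12 cases, beside 51.76% of all genes, and 1 had an unadjusted p under 0.05, beside 2.46%. Their median of -0.60 lay between -1.06 without replicate 1 of YJT and -0.42 without replicate 2 of YJT. Replicate 3 of YJT was the lowest of the 6 libraries for 8 of the 12 genes. Lepr, the leptin receptor that marks stromal cells around sinusoids, was at 54.3, 48.2 and 42 CPM in Model and 31.5, 16.4 and 13.6 CPM in YJT (log2 fold change -1.23, SE 0.45), and Blank at 59, 55.8 and 84.7 CPM. Every YJT library was below every Model library. Il7, which B cell precursors need, was at 3.24, 4.85 and 3.81 CPM in Model and 2.25, 1.67 and 2.86 CPM in YJT (log2 fold change -0.81, SE 0.38), Vcam1, an adhesion molecule that retains blood cells, at 82.6, 61.3 and 59.9 CPM in Model and 52.1, 26 and 29.5 CPM in YJT (log2 fold change -0.92, SE 0.46), and Kitlg, stem cell factor, at 63, 70.4 and 80.8 CPM in Model and 64.1, 34.3 and 31.2 CPM in YJT. Tendon and fibroblast genes had 1 of 20 under an unadjusted 0.05, Mfap5 of elastic microfibrils, and a median of 0.39 that changed sign under 2 of 16 settings. Smooth muscle and pericyte genes had 1 of 10, Tagln. Their median of 0.77 was 0.45 without replicate 2 of Model and at most 1.25 with any single library left out. The tendon and smooth muscle counts, both on the higher side, stand beside 4.12% of all genes. Nerve and Schwann cell genes had 0 of 11, with a median of 0.11 that changed sign under 5 of 16 settings.

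B cell genes were lower in 19 of 20 cases, beside 51.76% of all genes, and 8 had an unadjusted p under 0.05, beside 2.46%. Their median was -0.61. Ms4a1, the surface protein CD20, was at 32.5, 54.9 and 39 CPM in Model and 19.3, 24.1 and 13.8 CPM in YJT (log2 fold change -1.14, SE 0.35), with Blank at 30.03, 29.4 and 27 CPM. Cd24, high on B cell precursors, was at 152, 327 and 225 CPM in Model and 133, 109.9 and 74.8 CPM in YJT (log2 fold change -1.15, SE 0.38), and Cd79a, a signalling chain of the B cell receptor, at 108, 213 and 181 CPM in Model and 113, 99 and 69.2 CPM in YJT (log2 fold change -0.84, SE 0.31). Ms4a1 and Cd24 separated the groups, and Cd79a overlapped. Replicate 2 of Model was the highest of the 6 libraries for 15 of the 20 genes and replicate 3 of YJT the lowest for 16. Without replicate 2 of Model 1 gene had an unadjusted p under 0.05, without replicate 3 of YJT 2, and without both 0 with a median of -0.26. Plasma cell genes had 3 of 13 lower with an unadjusted p under 0.05, and a median of -0.37 that lay between -0.57 without replicate 2 of YJT and -0.32 without replicate 3 of Model. Prdm1, the factor Blimp-1 that sets plasma cell fate, was at 14.9, 11.4 and 16.2 CPM in Model and 8.88, 5.41 and 3.55 CPM in YJT (log2 fold change -1.25, SE 0.46), and Irf4, another such factor, at 45, 83.8 and 72.6 CPM in Model and 40.1, 38.1 and 33.1 CPM in YJT (log2 fold change -0.86, SE 0.34), both without overlap.

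Red cell genes were higher on average. All 24 erythroid genes had a positive fold change, beside 48.22% of all genes, and 3 had an unadjusted p under 0.05, beside 4.12%. The median of 0.95 lay between 0.66 without replicate 2 of Model and 1.47 without replicate 1 of Model. Epor, the erythropoietin receptor, was at 58.4, 20.1 and 31.5 CPM in Model and 59.8, 111 and 83.1 CPM in YJT (log2 fold change 1.21, SE 0.50), and Tspo2, a membrane protein of maturing red cells, at 14.8, 7.63 and 8.16 CPM in Model and 18, 32.2 and 21.5 CPM in YJT (log2 fold change 1.23, SE 0.48). For Epor replicate 1 of YJT was only just above replicate 1 of Model. Urod, an enzyme of heme synthesis, was at 178, 97.2 and 118 CPM in Model and 156, 363 and 237 CPM in YJT (log2 fold change 0.95, SE 0.42), with overlap. Haemoglobin transcripts took 7.33% ± 3.23 of counts in Model and 10.8% ± 4.10 in YJT (SD, n = 3, exact two-sided permutation p = 0.3). The 3 erythroid markers found summed to values from 15270.0 to 30262 CPM in Model and from 18532 to 48094 CPM in YJT. Cell division genes were higher in 23 of 24 cases, 1 with an unadjusted p under 0.05, with a median of 0.35 that lay between 0.18 without replicate 3 of YJT and 0.54 without replicate 1 of YJT. Ccne1, the cyclin of entry into DNA synthesis, was at 69.9, 57 and 45.4 CPM in Model and 66, 127 and 108 CPM in YJT (log2 fold change 0.80, SE 0.35), with replicate 1 of YJT inside the Model range.

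The remaining blood lists gave few single genes. Their counts stand beside 2.46% of all genes lower and 4.12% higher with an unadjusted p under 0.05. A negative fold change was seen in 51.76% of all genes. Monocyte and macrophage genes were lower in 13 of 16 cases, 2 with an unadjusted p under 0.05, with a median of -0.63 that lay between -0.95 without replicate 1 of YJT and -0.41 without replicate 3 of Model. Mrc1, the mannose receptor, was at 46.1, 53.2 and 62.1 CPM in Model and 35.6, 17.1 and 25.7 CPM in YJT (log2 fold change -1.04, SE 0.42), while Vsig4, a complement receptor of resident macrophages, was higher at 1.17, 0.534 and 0.811 CPM in Model and 2.4, 3.43 and 1.52 CPM in YJT (log2 fold change 1.55, SE 0.59). Neutrophil genes had a median of 0.35 over 20 genes, 0 under an unadjusted 0.05, and -0.02 without replicate 3 of YJT. Their granule gene Ngp was at 1379.7, 1251 and 672 CPM in Model and 1304, 1727 and 2118 CPM in YJT. T and NK cell genes had a median of -0.18, positive at 0.08 without replicate 1 of Model, and 1 of 18 under an unadjusted 0.05, Cd3g, at 6.0, 41 and 9.999 CPM in Model and 4.82, 8.96 and 3.83 CPM in YJT. Mast cell, basophil and eosinophil genes had 1 of 14, the mast cell protease Cpa3 at 13.5, 26.4 and 7.63 CPM in Model and 7.23, 7.01 and 7.51 CPM in YJT, and a median of 0.00 that changed sign under 6 of 16 settings. Megakaryocyte and platelet genes had 0 of 16, and a median of 0.14 that changed sign under 4 of 16.

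**Figure D5:**
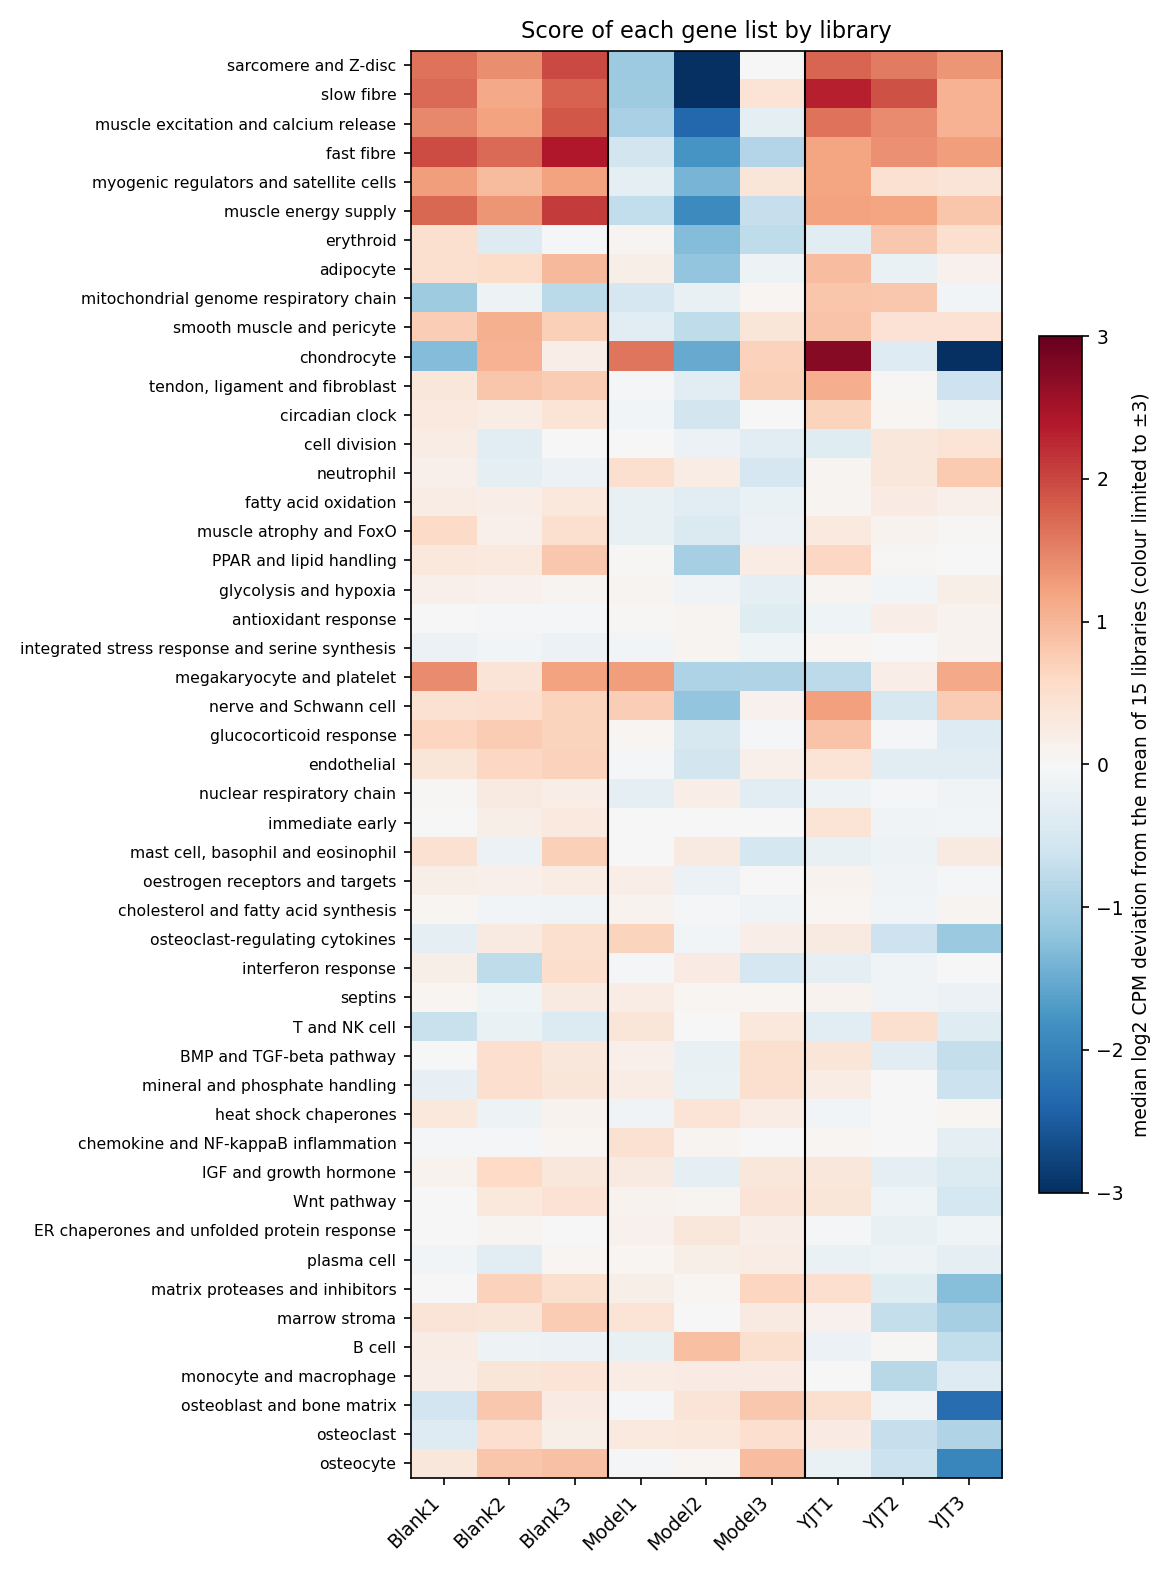
List scores (the median over genes of the log2 CPM difference from each gene's 15-library mean) of the gene lists in the 9 libraries of Blank, Model and YJT, shown as colours. The muscle rows are lowest in replicate 2 of Model (-4.54 for slow fibres), while replicate 3 of Model reaches 0.40 for slow fibres. Replicate 3 of YJT is low in the bone and cartilage rows (-2.29 and -3.66).

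Clock genes had 3 higher and 1 lower of 19 with an unadjusted p under 0.05, beside 4.12% and 2.46% of all genes, with a median of 0.38 that was 0.08 without replicate 1 of YJT, the highest of the 6 libraries for 11 of the 19 genes. Cry1, a repressor of the clock, was at 17.3, 35.1 and 21.7 CPM in Model and 15, 15.2 and 12.9 CPM in YJT (log2 fold change -0.78, SE 0.26), and Per3 at 11.7, 4.07 and 9.47 CPM in Model and 15.5, 20.3 and 17.6 CPM in YJT (log2 fold change 1.08, SE 0.48). Both separated the groups. The E-box letters CACGTG, bound by the clock's activators and searched on both strands, were in 4 of the 15 clock promoters at hand (26.7%), Bhlhe40, Bhlhe41, Ciart and Tef, against 6.65% of all. Time of day at collection is not given in the labels.

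Glucocorticoid-induced genes had 2 of 19 under an unadjusted 0.05, Pdk4 and the clock gene Per1 at 17.9, 13.3 and 22.4 CPM in Model and 52.6, 28.3 and 19 CPM in YJT, with a median of 0.09 that changed sign under 4 of 16 settings. Fkbp5 and Tsc22d3, sensitive reporters of this receptor, were at 139, 117 and 94.3 CPM in Model and 113, 118 and 134 CPM in YJT and at 90.5, 99.9 and 89.5 CPM in Model and 152, 91.1 and 68.7 CPM in YJT, and both directions changed under other settings. Immediate early genes had 4 of 24 higher, beside 4.12% of all genes, and a median of 0.02 that changed sign under 5 of 16. Nr4a1, an orphan nuclear receptor induced within minutes by many signals, was at 16.1, 6.71 and 12.3 CPM in Model and 36.6, 21 and 32.8 CPM in YJT (log2 fold change 1.37, SE 0.37), without overlap, and Fosb, at 1.62, 0.464 and 1.18 CPM in Model and 17.5, 1.62 and 0.935 CPM in YJT, rested on replicate 1 of YJT. Inflammatory chemokine and NF-kappaB genes had 1 of 22 lower, beside 2.46% of all genes. This was the NF-kappaB subunit Nfkb2, at 28.4, 35.4 and 36.9 CPM in Model and 26.6, 24.9 and 22.4 CPM in YJT (log2 fold change -0.45, SE 0.15). The list's median of -0.23 lay between -0.31 and -0.11 with single libraries left out. It was 0.03 among genes with a mean of at least 5 FPKM. Interferon response genes had 1 of 23, the exonuclease Isg20 at 6.52, 5.16 and 4.62 CPM in Model and 8.23, 11.1 and 8.55 CPM in YJT, with a median of -0.07 that changed sign under 3 of 16.

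Antioxidant genes had 2 higher and 1 lower of 18, with a median of 0.18 that lay between 0.12 and 0.26 with single libraries left out. Hmox1, the inducible heme oxygenase, was at 74.6, 72.1 and 65.6 CPM in Model and 57.6, 35.5 and 55.9 CPM in YJT (log2 fold change -0.51, SE 0.20), and Gsta1, a glutathione transferase, at 7.22, 3.51 and 4.3 CPM in Model and 11.7, 9.34 and 7.38 CPM in YJT (log2 fold change 0.92, SE 0.34), both without overlap. Cholesterol and fatty acid synthesis genes had a median of -0.05 over 22 genes that changed sign under 3 of 16. Septins, filament-forming GTPases, had 1 higher, Septin8 at 59.2, 29.2 and 45.4 CPM in Model and 69.3, 80.02 and 80.2 CPM in YJT, and 2 lower, Septin6 at 46.6, 54.8 and 52.8 CPM in Model and 37.4, 31.9 and 39.6 CPM in YJT and Septin11 at 94.3, 68.9 and 106 CPM in Model and 67.1, 52.6 and 59.5 CPM in YJT, of 12. Their median of -0.17 became 0.02 without replicate 1 of Model. The antioxidant and septin counts stand beside 4.12% of all genes higher and 2.46% lower with an unadjusted p under 0.05.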

How the data were processed

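Gene expression in 6 of 15 bone libraries, YJT and Model, was compared. Per the labels' protocols, Trizol RNA was selected on oligo(dT), strands were marked with dUTP, adapters carried molecular identifiers, and paired ends were read on a NovaSeq. Tools named without roles in the submitters' processing notes are UMI-tools, edgeR, DESeq2, StringTie 1.3.4d, HISAT2 2.0.4 and cutadapt 1.9. Genome build, annotation, counting step and strand setting were not given in the sources used here, so overlapping, antisense or near-identical genes may share reads. Per the file headers, the deposited table holds the authors' counts, as whole numbers, and their FPKM values for 22468 genes. Of these, 2261 share a symbol and were kept apart by identifier in the gene test. A list, key or marker gene looked up by a shared symbol was read from 1 entry only.

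Counts were tested with edgeR 4.0.16 in R 4.3.3: filterByExpr (17657 genes kept, 4811 left out), TMM factors, 1 robust quasi-likelihood fit with 5 group means over the 15 libraries (10 residual degrees of freedom, biological coefficient of variation 42.7%), two-sided, Benjamini-Hochberg threshold 0.05. The standard error is the log2 fold change divided by the root of F. Shares of counts were compared with exact permutation tests.

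Members and the 49 lists were chosen with earlier results of these data known. Of 885 list genes 853 were matched by symbol and 2 by identifier, and 30 were not analysed here. Lists are described by counts and medians. Named are the 15 genes in each direction with the smallest p that carry a symbol, reach a mean of 1 FPKM and separate the groups, up to 4 members of each list with the smallest p, and 26 key genes. Genes listed beyond these, such as the remaining chaperones, were picked after their values were seen, and a few that the rule names are not reported here. Alternatives were RLE factors, no filter, a mean of 5 FPKM, DESeq2 1.42.0, limma 3.58.1 on log2 FPKM values with a pseudocount of 1 or 0.1 (genes that reach 1 FPKM in 3 libraries), the 6 libraries alone, a replicate block, each library left out, and an unadjusted p with a 2-fold change. Added after seeing the data were no scaling factors, and leaving out YJT replicate 3 with Model replicate 2. With 3 libraries a side, leaving out 1 library leaves 2, and the spread is pooled with the other groups.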

Additional observations from a re-analysis of the deposited data

How the results depend on the processing

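The count of 0 genes past edgeR's adjusted threshold held with RLE factors, other filters, limma, the 6 libraries alone, no scaling factors and each library left out, while DESeq2 called 96 genes (87 higher, 9 lower), and 597 genes had an unadjusted p under 0.05 with a 2-fold change. Fatty acid oxidation (median 0.34) gave 0.20 and 0.21 with limma, 0.20 with no scaling factors, 0.44 without YJT replicate 3 and Model replicate 2, and 0.30 to 0.48 with single libraries left out. The endoplasmic reticulum list (median -0.36) gave -0.49 and -0.50 with limma, -0.49 with no scaling factors, -0.25 without YJT replicate 3 and Model replicate 2, and -0.40 to -0.30 with single libraries left out. The cause was not tested. Direction was kept under all 16 other settings by 207 of 228 named genes and 31 of 49 lists. Of 3526 values of named genes under alternatives, 3306 lay less than a standard error from the gene's main value, whichever their sign. Another 184 lay further off without passing the threshold, 36 passed it with another tool in the same direction, and 0 reversed a call. Replicate numbers pair nothing in the labels, and same-numbered deviations of YJT and Model correlated at -0.04, 0.17 and -0.17. With the replicate block 0 genes passed and 955 had an unadjusted p under 0.05, against 1162. Low counts, such as those of Myh8 in Model, limit such values.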
